A study of Mus musculus with 18 samples.

Results

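Nr4a1, Nr4a2, Nr4a3, Egr1, Egr2, Egr3, Ier2 and Ier3 are 8 immediate-early genes of the mouse, chosen by name and followed across every kind of library made from the urinary bladder. They are 8 of the 29214 genes of the bulk table and 8 of the 26344 non-mitochondrial genes that the cell, nuclei and section tables have in common. All 8 are listed in every table. The 18 libraries came from C57BL/6 mice with no transgene or treatment named. Each library pools animals, as labelled. Whole-bladder cells came from 3 males at 22 months, 3 males at 3 months, 2 females and 2 males at 12 months (2 such libraries) and 2 females and 2 males at 24 months. One library of nuclei came from 12-month bladders of 2 females and 2 males. The muscular wall gave a detrusor-only library (14 months, 3 females) and a detrusor-enriched whole-bladder library (14 months, 2 females and 2 males). Frozen sections were taken at 22 months (2 sections) and 14 months (2 sections), each labelled with 4 males. Bulk RNA was sequenced from 3 intact tissue libraries and 3 libraries of dissociated cells, all at 12 months and all labelled with 3 females.

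Immediate-early genes are transcribed within minutes of a stimulus without new protein synthesis, because the factors that switch them on are already in the cell and need only be phosphorylated. Signals through MAP kinases and through calcium or cyclic AMP reach serum response factor and CREB at their promoters. Nr4a1 (Nur77), Nr4a2 (Nurr1) and Nr4a3 (Nor1) encode orphan nuclear receptors whose activity follows their amount, and Egr1, Egr2 and Egr3 encode zinc-finger transcription factors that bind GC-rich sites and are restrained by the Nab co-repressors. Ier2 encodes a small nuclear protein, and Ier3 (IEX-1) a stress-induced protein known for its part in cell survival and ERK signalling. Dissociation of tissue into cells is known as a stimulus of this class of genes, and the libraries hold tissue that was and was not dissociated.

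RefSeq promoter windows (GRCm38.p6) were matched for 5 of the 8 genes, Nr4a1, Nr4a2, Nr4a3, Egr2 and Ier3. Egr1, Egr3 and Ier2 are named only. The 250 bases before the annotated start are shown for the 3 Nr4a genes, because theirs is the family with every member matched. Capitals mark the CREB half-site, TGACG on either strand (written CGTCA where it lies on the other strand). The windows are chr15:101266596-101266845 on the plus strand for Nr4a1, chr2:57124004-57124253 on the minus strand for Nr4a2 and chr4:48045055-48045304 on the plus strand for Nr4a3, each printed 5′ to 3′ in the direction of transcription.
Nr4a1: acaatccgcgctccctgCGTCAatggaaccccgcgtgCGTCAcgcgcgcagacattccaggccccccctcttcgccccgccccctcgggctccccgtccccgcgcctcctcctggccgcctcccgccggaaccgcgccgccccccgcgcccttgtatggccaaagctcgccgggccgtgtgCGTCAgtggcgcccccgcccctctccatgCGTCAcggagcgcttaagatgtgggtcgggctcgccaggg
Nr4a2: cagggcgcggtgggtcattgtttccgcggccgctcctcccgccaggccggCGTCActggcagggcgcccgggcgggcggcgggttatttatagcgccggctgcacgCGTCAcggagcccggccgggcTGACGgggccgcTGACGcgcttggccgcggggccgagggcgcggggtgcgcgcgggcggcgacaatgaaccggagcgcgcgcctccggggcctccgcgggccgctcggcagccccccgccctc
Nr4a3: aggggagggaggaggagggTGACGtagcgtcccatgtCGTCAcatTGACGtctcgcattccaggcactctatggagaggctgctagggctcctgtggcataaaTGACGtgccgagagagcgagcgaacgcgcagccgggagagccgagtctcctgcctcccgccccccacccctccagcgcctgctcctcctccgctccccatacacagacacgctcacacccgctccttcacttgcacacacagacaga
Each of the 3 windows held 4 half-sites. They began at -233, -213, -69 and -40 in Nr4a1, at -200, -144, -123 and -111 in Nr4a2, and at -231, -213, -205 and -147 in Nr4a3, counting the base before the start as -1. Of 32851 windows of the same length, 17.8% held at least 1 half-site and 0.137% (45 windows) held 4 or more. The Ier3 window held 0 half-sites. Egr2 has 5 listed starts, whose windows held 0, 0, 2, 2 and 2 half-sites and, in 4 of the 5, 1 CArG box, the serum response factor motif (none at the first start). At the third start it was spelled CCATATATGG, at -72 to -63. The windows of Egr2 starts 3, 4 and 5 overlap, beginning at chr10:67537619, 67537620 and 67537680. The same box and the same 2 half-sites are thus counted in each of them. A CArG box was found in 1.47% of all windows, and in none of the Nr4a or Ier3 ones. The full CREB site TGACGTCA (1.55% of all windows) and the AP-1 site TGANTCA (6.75%) were found in none of the windows of these 5 genes. These matches describe letters in the windows only.

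The bulk libraries held between 23083752 and 68760791 reads assigned to genes, and the cell libraries between 948 and 8420 cells after filtering, with median depths per barcode of 1837 to 15040 UMIs. The nuclei library held 3375 nuclei at a median of 1126 UMIs per barcode, and the sections 937 to 1317 spots at 14000 to 16620. Levels below are counts-per-million values (CPM) of a library or of a summed class, and were compared for one gene at a time. The 8 genes together took 0.00899% to 0.0139% of the reads in intact tissue and 0.564% to 0.65% in dissociated cells. In the droplet libraries they took 0.131% to 0.568% of the counts of cells but 0.0228% in nuclei. In the sections they took 0.0164% to 0.0457% in 3 sections and 0.156% in the first 14-month section, which stands apart.

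All 8 genes were higher in dissociated bladder cells than in intact bladder in the bulk libraries, by 8.03-fold (Ier3) to 98.9-fold (Nr4a1) as ratios of mean CPM. The Nr4a and Egr genes moved most and Ier2 and Ier3 least. No dissociated library overlapped an intact one for any of the 8. The intact libraries are tissue that was not made into single cells. Intact and dissociated libraries also differed in cell mix, as given below, so the comparison does not separate preparation from cell mix.

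Nr4a1 gave 272, 768 and 828 reads in the 3 intact libraries and 55146, 46556 and 41993 in the 3 dissociated ones. Its level was 18.3 ± 11.8 CPM (SD, n = 3) in intact tissue and 1807 ± 135 CPM (SD, n = 3) in dissociated cells, a ratio of 98.9. Intact library 3 read highest of the intact libraries, and even so the lowest dissociated library was 54.1-fold above it. The edgeR quasi-likelihood test gave a log2 change of 6.75 (SE 0.47, Benjamini-Hochberg adjusted p = 2.454e-05). Nr4a2 gave 109, 335 and 179 reads in intact tissue and 10742, 11652 and 12028 in dissociated cells. That is 5.49 ± 1.21 against 437 ± 57.7 CPM (SD, n = 3 each), with a log2 change of 6.44 (SE 0.20, edgeR adjusted p = 7.593e-07). Nr4a3, the third receptor of the family, gave 193, 537 and 265 reads against 13002, 16024 and 15235. Its means were 8.79 ± 1.25 and 562 ± 87.8 CPM (SD, n = 3 each), with a log2 change of 6.12 (SE 0.18, edgeR adjusted p = 6.944e-07). For all 3 receptors the 3 dissociated libraries lay close together and far above the intact ones.

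Egr1 gave 828, 1102 and 778 reads in intact tissue and 84291, 62118 and 58746 in dissociated cells. Its means were 27.3 ± 10.2 and 2575 ± 373 CPM (SD, n = 3 each), and the log2 change was 6.68 (SE 0.35, edgeR adjusted p = 6.67e-06). Intact library 2, the deepest, read lowest of the intact libraries in CPM, and the groups stayed 64.1-fold apart at their nearest points. Egr2, which also drives myelin genes in Schwann cells and restrains T cell activation, gave 27, 61 and 44 reads against 3993, 3243 and 2601. Its log2 change was 6.82 (SE 0.23, edgeR adjusted p = 1.197e-06). Egr3, itself a target of Egr1, gave 19, 61 and 20 reads against 991, 1052 and 622, with a log2 change of 5.42 (SE 0.19, edgeR adjusted p = 1.219e-06). Egr2 and Egr3 thus rested on few reads in intact tissue, at 1.25 ± 0.409 and 0.827 ± 0.059 CPM (SD, n = 3 each).

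Ier2 gave 611, 1475 and 782 reads in intact tissue and 8568, 6583 and 5705 in dissociated cells, with means of 26.0 ± 4.33 and 261 ± 37.8 CPM (SD, n = 3 each). Its log2 change was 3.45 (SE 0.16, edgeR adjusted p = 3.843e-06). Ier3 gave 542, 1843 and 709 reads against 5951, 5290 and 5202, with means of 25.9 ± 2.07 and 207 ± 10.3 CPM (SD, n = 3 each) and a log2 change of 3.12 (SE 0.10, edgeR adjusted p = 7.593e-07). The Ier genes also separated fully, the lowest dissociated library being 7.84-fold (Ier2) and 7.18-fold (Ier3) above the highest intact one. By log2 change the 3 Nr4a genes and Egr1 and Egr2 ranked between 20 and 30 of 16538 genes tested, Egr3 ranked 45, Ier2 190 and Ier3 234.

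All 8 of 8 members were called higher, against 27.9% of all genes tested called higher and 59.2% called in either direction. The 8 genes and the pathway lists below were chosen with earlier results of these data known. Such counts are thus descriptions and not independent support. Groups that did not overlap were seen for 67.9% of all genes, so the separation alone is common in these libraries and the size of the change is what differs. Every leave-one-out fit and every other setting tried called all 8. The libraries are labelled with 3 females each, and nothing says whether these were separate animals, so the p-values measure the spread between these libraries, which may be technical.

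**Figure D1:**
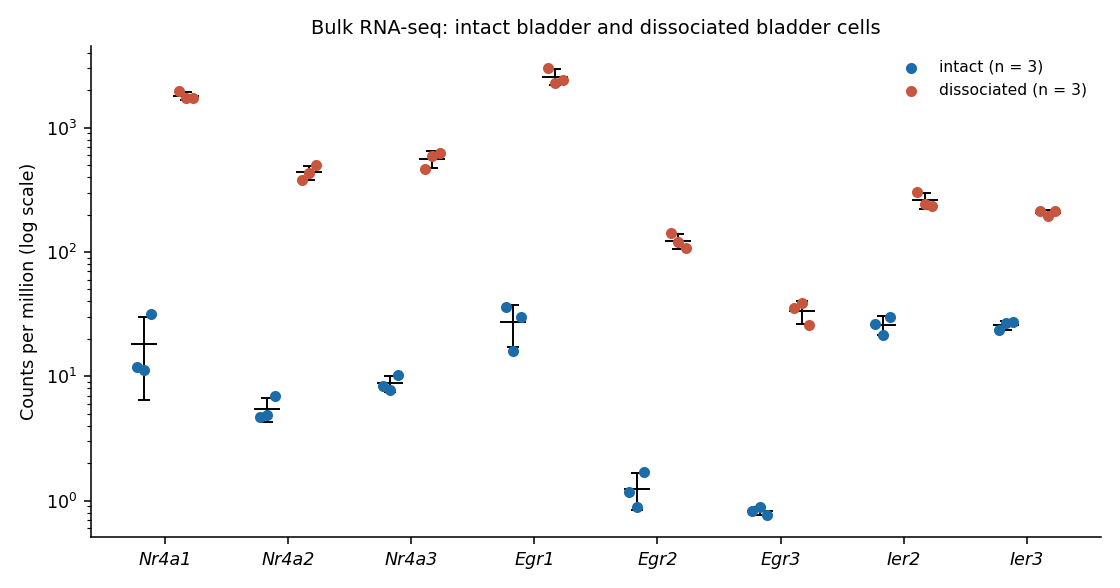
CPM on a log axis for each of the 8 genes in the 3 intact (blue) and 3 dissociated (orange) bulk libraries; points are libraries, long bars the mean and whiskers the SD. For every gene all 3 dissociated libraries lie above all 3 intact ones, with the gap smallest for Ier3 and Ier2.

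The pathway around the 8 genes moved with them in part. All 8 of 8 AP-1 immediate-early factors, the Fos and Jun family and Atf3, were higher in dissociated cells, with a median log2 change of 5.10 (members 6.28, all genes -0.03). The largest were Fosb at 9.47 (SE 0.74, edgeR adjusted p = 4.344e-05) and Atf3 at 7.61 (SE 0.46, edgeR adjusted p = 1.334e-05). Of the other immediate-early and delayed-early genes 28 of 28 were higher, at a median of 2.93, led by Egr4, the remaining Egr family gene, at 6.38 and by Csrnp1 at 5.01. Of 13 feedback inhibitors 12 were higher and none lower (median 1.94), led by the MAP kinase phosphatase Dusp1 at 5.14 and the mRNA decay factor Zfp36 at 4.88. Of 22 kinases and factors that act upstream 10 were higher and 4 lower (median 0.20), beside the 59.2% of all genes called, with the CREB coactivators Crtc2 at 1.16 and Crtc1 at -0.78. Scaled by library size only, which moved the median of all genes to -0.14, 7 were higher and 7 lower. Of 9 co-regulators and partners 5 were higher and 2 lower, among them Nab2, which represses Egr proteins, at 1.15 and Rxra, a partner of Nr4a1 and Nr4a2, at -0.80.

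The cell mix of the 2 kinds of bulk library also differed. Summed levels of the 10 smooth muscle markers were 41430 to 43210 CPM in intact tissue and 2239 to 3386 CPM in dissociated cells. The 12 fibroblast markers summed to 13900 to 17070 and 24560 to 36800 CPM, the 13 urothelial markers to 7728 to 8899 and 6095 to 8987 CPM, and the 12 macrophage or monocyte markers to 876 to 980 and 1122 to 1498 CPM. The 8 dendritic markers summed to 114 to 125 CPM in intact tissue and 267 to 364 CPM in dissociated cells, the 5 erythroid ones to 72.2 to 82.4 and 297 to 358.5 CPM, and the 6 adipocyte ones to 252 to 298 and 37.1 to 44.9 CPM. Of 19 lists of cell type markers 10 were higher and 5 lower in all dissociated libraries, and 4 overlapped. No marker of the lists named here was at 0, except 1 adipocyte marker in 2 dissociated libraries. The part of this difference in the change of the 8 genes was not tested, and in bulk RNA fewer cells of a type and less RNA per cell cannot be told apart.

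In the single-cell libraries, the 8 genes were detected in several classes at once, and their order differed by gene. Classes were rebuilt from clusters that were made without the 8 genes and without the pathway lists, and carry the suffix "-like" because no deposited table names cells. Nr4a1 was lower in urothelial-like and mesothelial-like cells than in fibroblast-like cells, Egr1 was lower in 5 classes, and Nr4a3 was higher in dendritic-like and in T or NK-like cells. Ier3 was higher in blood endothelial-like and in macrophage or monocyte-like cells and lower in T or NK-like cells. Counts were summed per library and class, each class was set against the fibroblast-like cells of the same libraries with library as a block, and fold changes are from edgeR's quasi-likelihood test, with TMM scaling and library terms shared by all classes. CPM values have no such scaling. Of all genes called, 49.9% were higher in urothelial-like, 43.8% in dendritic-like, 44.8% in macrophage or monocyte-like, 43.7% in mesothelial-like and 40.7% in pericyte-like cells. Scaled by library size only these shares were 35.7%, 28.1%, 28.5%, 57.3% and 51.2%. The median log2 change of all genes moved with it from 0.04 to -0.24 in urothelial-like, from -0.16 to -0.525 in dendritic-like, from -0.09 to -0.44 in macrophage or monocyte-like and from -0.27 to -0.09 in T or NK-like cells.

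The fibroblast-like class was the reference because all 7 cell libraries hold at least 50 cells of it (141 to 4421). Its Nr4a1 level was 250 and 319 CPM in the 22-month and 3-month male libraries, 946, 1484 and 912 CPM in the first and second 12-month and the 24-month libraries, and 535 and 480 CPM in the detrusor-only and detrusor-enriched libraries. Nr4a2 in the same order was at 16.9, 19.1, 192, 499, 167, 202 and 148 CPM, and Nr4a3 at 5.96, 5.28, 45.5, 172, 38.8, 66.0 and 31.3 CPM. The 2 male libraries thus read lowest of the 7 for all 3 Nr4a genes. Egr1 in this order was at 1092, 1083, 1387, 1861, 1469, 3035 and 2055 CPM, also lowest in the male libraries. Ier2 went the other way, at 3321, 2883, 1072, 1037, 970, 1676 and 936 CPM, highest in the 2 male libraries. The male libraries also gave 7.42% and 6.42% of their counts to ribosomal protein genes, against 28.5% to 29.2% in the 3 mixed-sex ones, and were counted with another gene list. The male libraries had median depths of 2524 and 1837 UMIs per barcode, against 9893 to 15040 in the mixed-sex ones, and also differed in age. Sex mix, age, depth and gene list cannot be told apart here, so values within these sets are given below where they change a call.

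Over the 9 classes held by at least 3 libraries, Nr4a1 had its highest median in pericyte-like cells (1198 CPM, 816 to 1232, n = 3 libraries), followed by dendritic-like (776 CPM, 413 to 1032, n = 6), blood endothelial-like (561 CPM, 256 to 757, n = 4) and fibroblast-like cells (535 CPM, 250 to 1484, n = 7). It then stood at 526 CPM in smooth muscle-like (294 to 1309, n = 3), 439 CPM in T or NK-like (226 to 738, n = 4), 426 CPM in macrophage or monocyte-like (328 to 803, n = 6), 251 CPM in urothelial-like (207 to 385, n = 6) and 66.6 CPM in mesothelial-like cells (51.1 to 316, n = 3). Every neighbour in this order overlapped the next in its range over libraries. Nr4a2 had its highest median in smooth muscle-like cells (351 CPM, 89.5 to 902) and its lowest in urothelial-like (21.3 CPM, 10.2 to 87.9) and mesothelial-like cells (19.8 CPM, 6.66 to 78.1). Nr4a3 ran from 126 CPM in pericyte-like cells (20.5 to 144) through 109 in T or NK-like (23.1 to 359) and 102 in dendritic-like cells (45.9 to 311) to 9.74 in blood endothelial-like cells (0 to 36.3) and 6.66 in mesothelial-like cells (6.59 to 48.6). Neighbours overlapped for these receptors too. These orders also mix sets of libraries. In the 2 detrusor libraries the Nr4a3 median was 262 CPM in T or NK-like, 246 in dendritic-like and 135 in pericyte-like cells, with 141 CPM in 1 urothelial-like sum. In the male libraries it was 53.0 CPM in dendritic-like, 37.7 in T or NK-like, 21.7 in urothelial-like and 20.5 CPM in pericyte-like cells (1 library). Schwann-like cells, from the 2 detrusor libraries alone, stood outside the order of the 9 classes at 747 CPM for Nr4a1 (399 to 1095), 232 CPM for Nr4a2 (173 to 291) and 20.99 CPM for Nr4a3 (4.08 to 37.9). Lymphatic endothelial-like cells, from the same 2 libraries, were at 156, 60.3 and 9.48 CPM, and B-like cells of 1 male library at 270.3, 0 and 38.6 CPM. The B-like Nr4a2 value lay below the lowest of the 9 medians and the others within their span.

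Over the same 9 classes Egr1 was highest in pericyte-like (3181 CPM, 1965 to 5240) and smooth muscle-like cells (2530 CPM, 429 to 2977), followed by blood endothelial-like (1508 CPM, 1130 to 2257) and fibroblast-like cells (1469 CPM, 1083 to 3035). It was lowest in T or NK-like cells, at 140, 124, 160 and 206 CPM in the 4 libraries that hold them. All 7 fibroblast-like values lay above these 4. The order mixes sets of libraries: in the whole-bladder library that holds smooth muscle-like cells these were at 429 CPM and fibroblast-like cells at 1861 CPM. Within the 2 detrusor libraries the medians were 4211 CPM in pericyte-like, 2754 in smooth muscle-like, 2545 in fibroblast-like, 2339 in macrophage or monocyte-like and 1693 CPM in blood endothelial-like cells. Schwann-like cells were at 1892 CPM (958 to 2826, n = 2), lymphatic endothelial-like cells at 1264 CPM and B-like cells at 180 CPM, within the T or NK-like range. Egr2 had its highest median of the 9 in dendritic-like cells (78.7 CPM, 43.5 to 224) and was at 8.22 CPM (2.02 to 13.4) in urothelial-like and 0 CPM (0 to 17.9) in mesothelial-like cells. The 2 Schwann-like sums gave Egr2 at 28.6 and 162 CPM, a higher median (95.3 CPM) that spans the dendritic-like one. Egr3 was nearly unseen in the 5 whole-bladder libraries, at 0 to 1.13 CPM in fibroblast-like cells, while the detrusor-only and detrusor-enriched libraries gave 27.1 CPM (577 UMIs) and 39.4 CPM (950 UMIs). The gene lists of those 2 sets of tables differ, and what part this has in the gap was not tested, so Egr3 between classes rests on the detrusor libraries. Its Schwann-like sums there were at 25.3 and 95.4 CPM.

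Ier2 had its highest median of the 9 classes in blood endothelial-like cells (2220 CPM, 943 to 4428) and its lowest in urothelial-like cells (290 CPM, 202 to 1340). The first of these rests on the 2 male libraries, at 3391 and 4428 CPM. In the 2 detrusor libraries blood endothelial-like cells had a median of 996 CPM, below macrophage or monocyte-like (1580 CPM), dendritic-like (1347 CPM), fibroblast-like (1306 CPM) and Schwann-like cells (1160 CPM). The fit over all classes gave -0.36 against fibroblast-like cells (SE 0.36, edgeR adjusted p = 0.4771). The urothelial-like range was set by the 2 male libraries at 1340 and 1161 CPM, with the other 4 at 202 to 294 CPM. Ier3 was highest of the 9 in blood endothelial-like cells, at 1013, 1341, 2571 and 2471 CPM in the 4 libraries, against 161 to 653 CPM in fibroblast-like cells with no overlap. Among the 9 it was lowest in T or NK-like cells, at 32.7, 77.2, 73.7 and 85.3 CPM, below mesothelial-like cells (187 to 1236 CPM) with no overlap. The single B-like sum was lower still, at 12.9 CPM, lymphatic endothelial-like cells were at 181 and 261 CPM, and Schwann-like cells at 404 and 997 CPM.

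**Figure D2:**
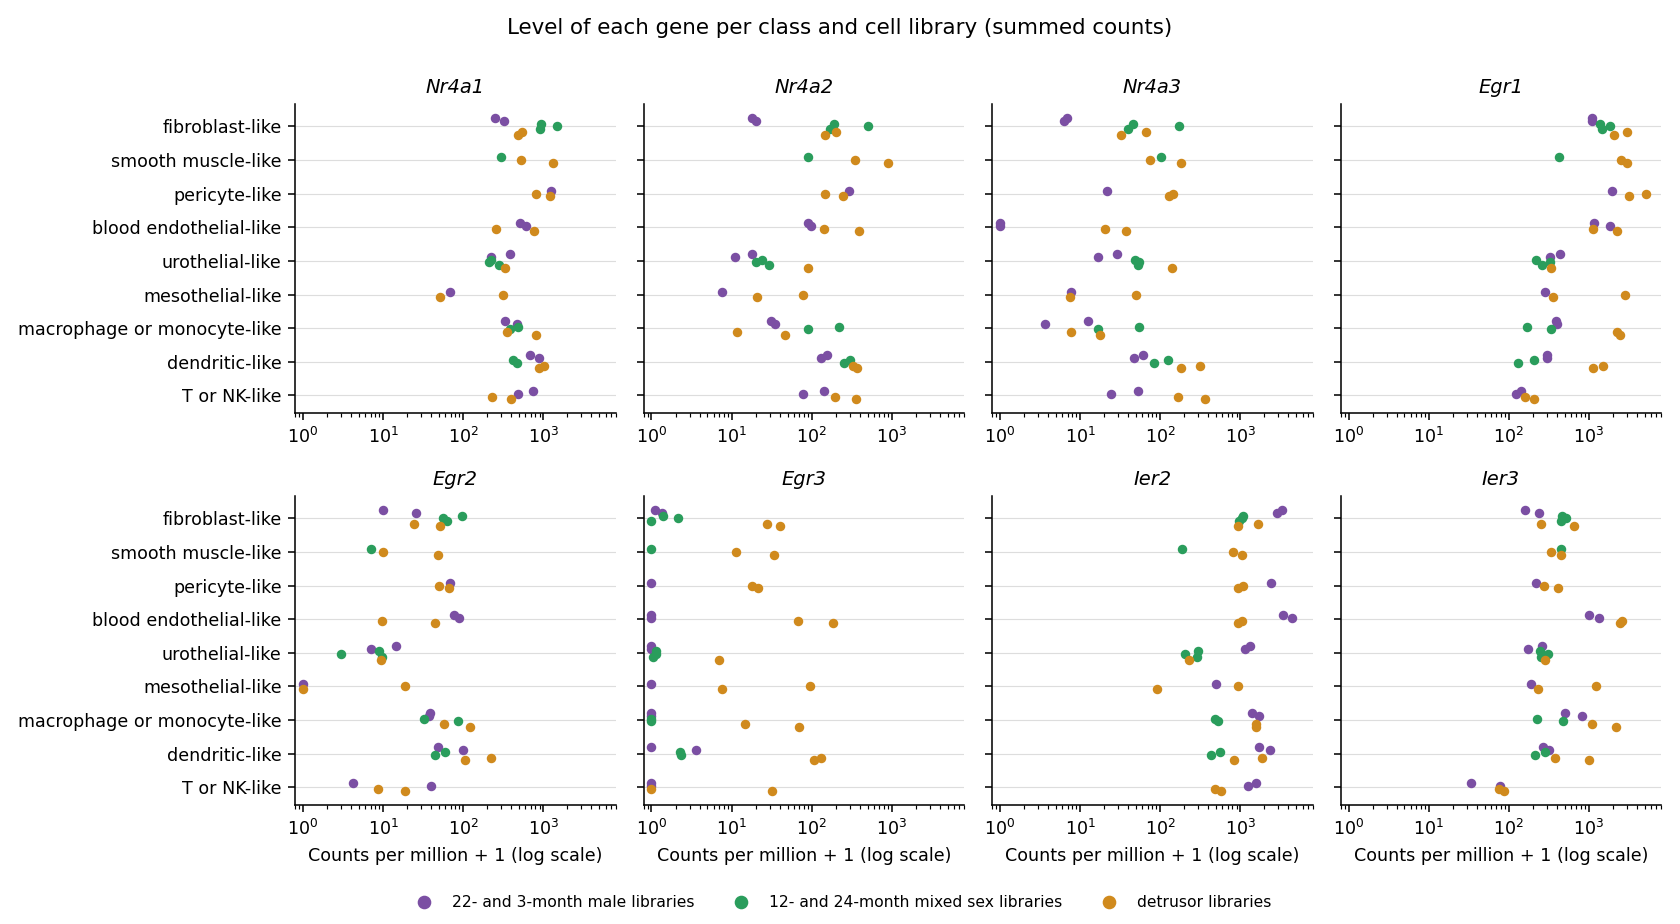
Level of each gene in each class of each cell library, in CPM plus 1 on a log axis; each point is the summed count of 1 class in 1 library of at least 50 cells, coloured by set of libraries. T or NK-like cells lie at the low end for Egr1 and Ier3, blood endothelial-like cells at the high end for Ier3, and Egr3 appears mainly in the detrusor libraries.

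Urothelial-like cells, the epithelium that lines the bladder, had 6 of the 8 genes lower than fibroblast-like cells and none higher, where 59.9% of all 12223 genes tested were called in either direction. Egr1 fell by 1.86 on the log2 scale (SE 0.40, edgeR adjusted p = 0.0001758), Egr2 by 2.25 (SE 0.52, edgeR adjusted p = 0.0004197) and Ier2 by 1.43 (SE 0.31, edgeR adjusted p = 0.0001734). Egr1 was at 437, 323, 217, 327, 262 and 336 CPM in the 6 urothelial-like sums, below each of the 7 fibroblast-like ones. Nr4a2 changed by -2.02 (SE 0.56, edgeR adjusted p = 0.002495), Egr3 by -2.26 (SE 0.68, edgeR adjusted p = 0.004615) and Nr4a1 by -1.08 (SE 0.42, edgeR adjusted p = 0.02579). Nr4a3 ran the other way and just missed the threshold (0.92, SE 0.41, edgeR adjusted p = 0.05031), and Ier3 was at -0.17, not called. The Nr4a1 call was lost without the first 12-month library (-0.95, edgeR adjusted p = 0.07732), the second 12-month library (-0.75, edgeR adjusted p = 0.1359) or the 24-month library (-0.98, edgeR adjusted p = 0.07194), and that of Egr3 without the detrusor-enriched library (-1.32, edgeR adjusted p = 0.09691). Over all libraries, and beside the same 59.9%, 4 of 8 AP-1 factors were lower and 1 higher (Junb -2.03, Fosl1 2.46), and 8 of 13 feedback inhibitors were lower and 4 higher (Spry4 -2.78, Dusp4 2.43).

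Within the 2 male libraries the urothelial-like Nr4a1 change was 0.20 and not called (edgeR adjusted p = 0.6514), Nr4a2 was at -0.30 and Egr2 at -0.50, also not called, while Nr4a3 was higher by 2.02. Nr4a1 was at 385 and 219 CPM in urothelial-like and 250 and 319 CPM in fibroblast-like cells of those libraries. In the 3 mixed-sex libraries it was at 220, 207 and 282 CPM in urothelial-like cells against 946, 1484 and 912 CPM in fibroblast-like cells, so that the lower urothelial level was seen there. With the male libraries alone 3 of the 8 members were called, where 44.7% of all genes were.

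Dendritic-like cells, which present antigen to T cells, had 4 of the 8 genes higher and 1 lower, where 56.5% of all genes were called in either direction. Nr4a3 was at 60.2, 45.9, 122, 81.6, 311 and 181 CPM in the 6 libraries (22-month male, 3-month male, first 12-month, 24-month, detrusor-only, detrusor-enriched) against 5.96, 5.28, 45.5, 38.8, 66.0 and 31.3 CPM in fibroblast-like cells of the same libraries. It was higher in all 6 pairs, by 2.31 on the log2 scale (SE 0.43, edgeR adjusted p = 3.153e-05). Egr3 was higher by 2.06 (SE 0.55, edgeR adjusted p = 0.001769), Egr2 by 1.43 (SE 0.53, edgeR adjusted p = 0.02062) and Nr4a2 by 1.38 (SE 0.55, edgeR adjusted p = 0.03183), while Egr1 fell by 1.76 (SE 0.41, edgeR adjusted p = 0.000528). The Nr4a2 call was lost without the 22-month male library (1.18, edgeR adjusted p = 0.092) and without the 3-month male library (1.19, edgeR adjusted p = 0.08848). Egr2 lost its call without the 3-month male library (1.25, edgeR adjusted p = 0.06863) or the detrusor-only library (0.88, edgeR adjusted p = 0.1262). Without the 3-month male library the count was 3 of 8, beside 54.7% of all genes. It was also 3 of 8, beside 61% of all genes, when scaled by library size only, with Egr2 at 1.08 (edgeR adjusted p = 0.1036) and Nr4a2 at 1.04 (edgeR adjusted p = 0.1004) not called.

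T or NK-like cells, in which Egr2, Egr3 and the Nr4a receptors are known to be induced by antigen receptor signals, had Nr4a3 higher by 1.82 (SE 0.53, edgeR adjusted p = 0.005438). The other genes of that set were not called, with Egr2 at -1.89, Egr3 at -1.64, Nr4a1 at -0.80 and Nr4a2 at 0.50. Nr4a3 was at 52.2, 23.1, 165 and 359 CPM in the 22-month male, 3-month male, detrusor-only and detrusor-enriched libraries, above the fibroblast-like value of each. Without the detrusor-enriched library the change was 1.37 (edgeR adjusted p = 0.05237). Egr1 fell by 4.11 (SE 0.57, edgeR adjusted p = 4.7e-07), Ier3 by 2.84 (SE 0.53, edgeR adjusted p = 4.681e-05) and Ier2 by 1.61 (SE 0.38, edgeR adjusted p = 0.000724). With 4 of 8 called, the share was near the 45.2% of all genes. The AP-1 factors Jun (-3.14) and Fos (-2.86) were lower too, 5 of 8 in that list being lower and none higher.

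Macrophage or monocyte-like cells had Ier3 higher by 1.46 (SE 0.38, edgeR adjusted p = 0.001707) and Egr1 lower, at -1.10 (SE 0.41, edgeR adjusted p = 0.02481), 2 of 8 against 50.8% of all genes. Egr1 was at 390, 405, 168 and 341 CPM in the 4 whole-bladder libraries that hold this class and at 2247 and 2431 CPM in the detrusor libraries, so the sets of libraries did not overlap. The 168 CPM came from 67 cells of the second 12-month library, whose leading genes were Cd74, H2-Aa, Lyz2, H2-Ab1, Cd52, Jchain and Retnla, in part genes of antigen presentation. Its call was lost without the 22-month male (-1.10, edgeR adjusted p = 0.06159), second 12-month (-0.71, edgeR adjusted p = 0.158) or 24-month library (-0.99, edgeR adjusted p = 0.06893). Within the 2 male libraries 5 members were called, where 36.8% of all genes were, with Nr4a1 higher by 1.12, Nr4a2 by 1.45 and Egr2 by 1.90.

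Blood endothelial-like cells had Ier3 higher by 2.03 (SE 0.43, edgeR adjusted p = 0.0002666) and Egr3 by 1.73 (SE 0.55, edgeR adjusted p = 0.01198), 2 of 8 against 37.5% of all genes. The Egr3 call was lost without the detrusor-enriched library (0.97, edgeR adjusted p = 0.1032). Other members differed by set of libraries. In the 2 male libraries the medians were 92.9 CPM for Nr4a2, 81.2 for Egr2, 561 for Nr4a1 and 0 for Nr4a3. Fibroblast-like medians there were 18.0, 16.9, 285 and 5.62 CPM. In the 2 detrusor libraries the same genes in this order were at 267, 26.1, 506 and 27.9 CPM, against 175, 37.0, 508 and 48.7 CPM in fibroblast-like cells. Among feedback inhibitors in blood endothelial-like cells Dusp2 (6.69) and Dusp6 (2.96) led, 4 of 13 being higher and 1 lower. Mesothelial-like cells, the outer lining, had Ier2 lower, at -2.34 on the log2 scale (SE 0.45, edgeR adjusted p = 0.0001756), Nr4a1 at -2.29 (SE 0.61, edgeR adjusted p = 0.006306) and Egr1 at -1.88 (SE 0.56, edgeR adjusted p = 0.01506), 3 of 8 against 20.6% of all genes. The mesothelial-like class came from 3 libraries, and the detrusor-only one read highest for each of these genes: without it 5 members were called, beside 13.3% of all genes. The Nr4a1 call was lost without the detrusor-enriched library (-1.86, edgeR adjusted p = 0.06589), and that of Egr1 without it (-1.51, edgeR adjusted p = 0.08659) or without the 22-month male library (-1.66, edgeR adjusted p = 0.1259).

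Pericyte-like cells, which wrap small vessels, had 0 of 8 members called by edgeR against 18.3% of all genes, and smooth muscle-like cells 0 of 8 against 28.3%. At an unadjusted p under 0.05 there were 0 in pericyte-like and 1 in smooth muscle-like cells, Ier2 at -1.03 (edgeR adjusted p = 0.05867), and DESeq2 called 0 and 1. The high medians above thus did not pass the test against fibroblast-like cells: Egr1 was at 0.02 (SE 0.51) in pericyte-like and -0.69 (SE 0.52) in smooth muscle-like cells, Nr4a1 at 0.41 and Nr4a3 at 0.97 in pericyte-like cells, and Nr4a2 at 1.23 in smooth muscle-like cells (SE 0.66, edgeR adjusted p = 0.1756). In CPM, pericyte-like Egr1 was above the fibroblast-like value in each of its 3 libraries, at 1965 against 1092, 5240 against 3035 and 3181 against 2055. Its fitted change was 0.16 when scaled by library size only. Pericyte-like Nr4a1 was at 1232 against 250 CPM in the 22-month male library, and Nr4a3 at 20.5 against 5.96 CPM. In the detrusor libraries Nr4a1 was at 816 and 1198 CPM against 480 and 535 CPM, and Nr4a3 at 126 and 144 against 31.3 and 66.0 CPM. Smooth muscle-like Nr4a2 was below in the second 12-month library (89.5 against 499 CPM) and above in the detrusor ones (351 and 902 against 148 and 202 CPM). The fit shares its library terms with all other classes, so its changes can differ from these pairs. Smooth muscle-like cells came from a cluster of 57 cells with mixed leading genes in the second 12-month library and from 375 and 166 cells in the detrusor-only and detrusor-enriched ones. Of these, 170 and 58 cells were in clusters led by Tnnt2, Actg2, Cnn1 and Des. The others, clusters of 107 and 98 cells in the detrusor-only and of 108 cells in the detrusor-enriched library, led with Pln and Map3k7cl, and 2 of these 3 also with Rgs4 and Rergl. Sncg, Rgs4, Rasl11a, Nrip2 and Pln, seen in part among their leading genes, also led the pericyte-like cluster of the 22-month male library. The class thus pools clusters with different leading genes, and its levels are not to be read as those of detrusor muscle alone. In that 12-month library Egr1 was at 429 CPM, against 2530 and 2977 CPM in the other two. The smooth muscle-like count was 2 without the detrusor-enriched library (20.5% of all genes) and 1 without the second 12-month one (28.3%).

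Across 47 class-by-library sums, the gene whose level followed Egr1 most closely was Fos (Pearson r = 0.939 of log2 CPM, centred within library), followed by Jun (0.93) and Kank2 (0.815). Nr4a1 was nearest to Csrnp1 (0.836), Junb (0.829) and Btg2 (0.822), and Ier2 to Junb (0.876), Zfp36 (0.832) and Cxcl1 (0.793). Egr2 was nearest to Zfp36 (0.794), Dusp1 (0.789) and Tnfsf9 (0.762). Several of these neighbours, among them Fos, Jun, Junb, Csrnp1, Btg2, Zfp36 and Dusp1, are themselves immediate-early or feedback genes. The nearest to the other 4 genes were Ckb (0.728), Plekhg2 (0.718) and Bhlhe40 (0.713) for Nr4a2, Impa2 (0.76), Stk24 (0.703) and Ptpn2 (0.703) for Nr4a3, Cyb5r1 (0.799), Lifr (0.798) and Ralb (0.754) for Ier3, and Zfp36 (0.564), Ifih1 (0.557) and Mapk7 (0.528) for Egr3. Among the 8 genes the closest pair was Egr2 with Ier2 (0.831), while Nr4a3 ran against Ier3 (-0.473) and Egr1 (-0.267). The sums of a library share its depth and free RNA, and these values are descriptions over 9225 genes of at least 10 CPM on average.

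Within a library the classes were not uniform. Fibroblast-like clusters of the detrusor-enriched library ranged from 149 to 916 CPM for Nr4a1 over 7 clusters, and those of the 22-month male library from 107 to 660 CPM over 6. Egr1 ranged from 827 to 3141 CPM and from 821 to 1630 CPM over the same clusters. Urothelial-like clusters of the first 12-month library ranged from 84.0 to 339 CPM for Nr4a1 and from 114 to 361 CPM for Egr1 over 7 clusters. Clusters are pieces of 1 library and carry no test.

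In urothelial-like nuclei, 7 of the 8 genes were below all 5 whole-bladder cell libraries, where 15.6% of all genes tested were. In fibroblast-like nuclei 7 of the 8 were also below all 5, where 23.5% of all genes were. One of these 7 is Nr4a3, whose 0 counts allow a level above that of the male libraries, and another is Nr4a2, whose counting interval spans them. In urothelial-like nuclei the interval of Egr2 reached the lowest cell library. Egr3 had 0 counts in both nuclei sums, with cell libraries at 0 to 0.150 CPM in urothelial-like and 0 to 1.13 CPM in fibroblast-like cells. There is 1 nuclei library, so the fit assumes that it would vary like the cell libraries. Its calls and SEs thus measure no spread between nuclei preparations. The calls and adjusted p-values given below for nuclei rest on that assumption. Intervals on the nuclei values cover counting error only. The nuclei table also lists 31053 genes, against 27775 or 27998 in the cell tables. Of the 5 cell libraries only the 12-month ones match the nuclei in labelled age and sex mix. Gene list and preparation cannot be told apart here.

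The 1245 urothelial-like nuclei held 2291592 counts. Nr4a1 had 6 counts there, 2.62 CPM (95% exact Poisson interval 0.961 to 5.70), against 207 to 385 CPM in urothelial-like cells of the 5 libraries. Nr4a3 had 3 counts (1.31 CPM, interval 0.27 to 3.83) against 15.6 to 53.3 CPM, and Egr1 had 18 counts (7.86 CPM, interval 4.66 to 12.4) against 217 to 437 CPM. None of these intervals reached the cell libraries. Ier2 and Ier3 were much better counted, at 236 and 242 counts, 103 CPM (interval 90.3 to 117) and 106 CPM (interval 92.7 to 120), against 202 to 1340 and 174 to 310 CPM. Nr4a2 was at 4.80 CPM (interval 2.40 to 8.59) against 10.2 to 28.3 CPM, a smaller gap. Egr2 had 1 count (0.436 CPM, interval 0.011 to 2.43), and its interval reached the lowest cell library at 2.02 CPM.

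Of the 7 members tested in urothelial-like sums, all 7 were called lower, against 19.1% of all genes called lower and 35.2% called in either direction. The log2 changes were -7.80 for Nr4a1 (SE 0.65, edgeR adjusted p = 0.001579), -6.47 for Egr1 (SE 0.50, edgeR adjusted p = 0.001579), -2.47 for Ier3 (SE 0.62, edgeR adjusted p = 0.02214) and -3.64 for Ier2 (SE 1.07, edgeR adjusted p = 0.03719). Nr4a2 was at -3.31 (SE 0.98, edgeR adjusted p = 0.03859). Nr4a3 (edgeR adjusted p = 0.02114) and Egr2 (edgeR adjusted p = 0.02887) rest on 3 counts and 1 count in nuclei, so their fitted changes are not quoted. Without the first 12-month cell library 4 members were called, beside 27.4% of all genes, with Nr4a2 (edgeR adjusted p = 0.06522), Egr2 (edgeR adjusted p = 0.05037) and Ier2 (edgeR adjusted p = 0.05205) lost. The Nr4a2 call was also lost without the second 12-month (edgeR adjusted p = 0.05852) or the 24-month library (edgeR adjusted p = 0.05287), and that of Ier2 without the 3-month male library (edgeR adjusted p = 0.0573). Scaling moved these sizes. Scaled by library size only, Nr4a1 was at -6.64, Egr1 at -5.31, Ier2 at -2.67, Nr4a2 at -2.04 and Ier3 at -1.24. The median of all genes moved from -0.03 to 1.12 with it, and the calls from 2134 higher and 2534 lower to 4970 higher and 582 lower.

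The 403 fibroblast-like nuclei held 417797 counts, so low genes were measured less well. Egr1 had 73 counts, 175 CPM (interval 137 to 220), against 1083 to 1861 CPM in the 5 cell libraries, a log2 change of -3.91 (SE 0.68). Nr4a1 had 5 counts, 12.0 CPM (interval 3.89 to 27.9), against 250 to 1484 CPM, a change of -7.00 (SE 1.66). Both lay clear of the cell libraries. Ier2 was at 86.2 CPM (interval 60.3 to 119) against 970 to 3321 CPM (-5.25, SE 0.98, edgeR adjusted p = 0.01173), and Ier3 at 50.3 CPM (interval 31.1 to 76.8) against 161 to 525 CPM (-3.82, SE 0.97, edgeR adjusted p = 0.02732). The Ier3 call was lost without the first 12-month (edgeR adjusted p = 0.05102) or the 24-month library (edgeR adjusted p = 0.05038), each leaving 3 called members beside 15.8% and 17.3% of all genes. These 4 of 7 tested members were called lower against 15.4% of all genes called lower and 23.8% in either direction. All 4 were still called when scaled by library size only, with Egr1 at -2.97, Nr4a1 at -6.02, Ier2 at -4.42 and Ier3 at -2.86. The median of all genes was -0.31 with TMM, -0.11 with RLE size factors and 0.57 by library size only, and the calls were 1052 higher and 1907 lower, 1375 and 1521, and 2676 and 499.

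Nr4a2, Nr4a3 and Egr2 were too low in fibroblast-like nuclei for their fitted changes to be quoted. Nr4a3 and Egr2 entered the fit through the cell libraries alone. Nr4a2 had 5 counts, 12.0 CPM (interval 3.89 to 27.9), which spans the 16.9 and 19.1 CPM of the male cell libraries. Nr4a3 and Egr2 had 0 counts in 417797, which allows up to 7.18 CPM at a floor of 3 counts. Against the mean of the cell libraries this is at least 7.46-fold lower for Nr4a3 and at least 6.88-fold lower for Egr2, although Nr4a3 in the male libraries, at 5.28 and 5.96 CPM, was itself below that floor. The bound for Nr4a3 rests on the second 12-month library (172 CPM) and is 3.33-fold without it, with 2 of the other 4 libraries above the floor. That for Egr2 is 5.27-fold to 8.28-fold over the sets that leave out 1 library.

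**Figure D3:**
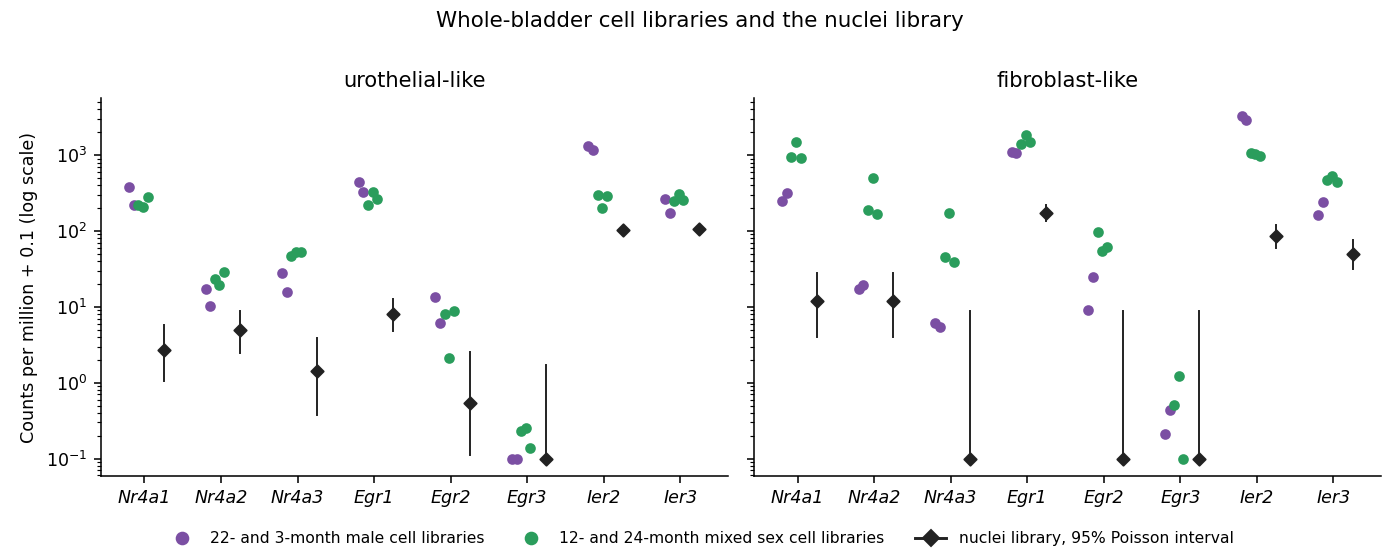
CPM on a log axis for each gene in urothelial-like (left) and fibroblast-like (right) sums of the 5 whole-bladder cell libraries (circles) and of the nuclei library (diamonds, with 95% Poisson intervals). The nuclei value lies below all 5 cell libraries for 7 genes in both panels. On the right, however, Nr4a3 had 0 counts and a floor above the 2 male libraries, and the Nr4a2 interval spans them. On the left the Egr2 interval reaches the lowest cell library. Egr3 is near 0 throughout.

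The AP-1 factors were lower in nuclei with them, 7 of 8 in urothelial-like and 6 of 8 in fibroblast-like sums and none higher (median log2 changes -5.50 and -6.23, all genes -0.03 and -0.31). In urothelial-like sums Atf3 was at -10.99 and Dusp1 at -5.92, and in fibroblast-like sums Fos was at -7.83 and Zfp36 at -5.46. With scaling by library size only the AP-1 counts were 6 lower and 1 higher, and 6 lower and none higher. Of 22 upstream kinases and factors 5 were higher and 3 lower in urothelial-like sums (median 0.70), beside 35.2% of all genes called, with Mef2a at 1.64 and Mapk3 at -1.41. In fibroblast-like sums 2 were higher and 3 lower (median 0.29), beside 23.8%. These counts turned on scaling: by library size only 16 were higher in urothelial-like and 9 in fibroblast-like sums, and none lower. Smooth muscle markers summed to 5252 CPM in urothelial-like and 11250 CPM in fibroblast-like nuclei, against 11.3 to 169 and 315 to 1125 CPM in the cell libraries. Their part in the levels of the 8 genes was not tested. In the 1380 smooth muscle-like nuclei themselves, Egr1 was at 32.1 CPM, Ier3 at 125, Ier2 at 28.1, Nr4a3 at 7.46, Nr4a1 at 6.88 and Nr4a2 at 0.573 CPM.

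With age, none of the 8 genes was called in the whole-bladder cells when 22 and 24 months were set against 3 and 12 months with a term for the sex mix of the pool. In urothelial-like sums 7 members were tested and their log2 changes ran from 0.18 (Egr1, SE 0.24) to 0.87 (Egr2, SE 0.54), with edgeR adjusted p = 0.9997 for each. In fibroblast-like sums they ran from -0.85 (Nr4a3, SE 0.85) to 0.03 (Ier2, SE 0.23), again with edgeR adjusted p = 0.9997. The fibroblast-like class does not hold matching clusters at both ages. A cluster led by Gatm, Tnc, Prss35, Rbp4 and Tlr12 (1147 cells) counts in it in the 3-month male library, while 1 of 1416 cells with Gatm, Rbp4, Tlr12, Tnc and Prss35 among its leading genes stayed unnamed in the 22-month male library. At an unadjusted p under 0.05 these held Nr4a1 (0.61) and Nr4a2 (0.53) in urothelial-like and Egr2 (-0.75) in fibroblast-like sums, and DESeq2 called 0 members in either. The background was 0% of 12245 genes in urothelial-like and 0% of 11404 genes in fibroblast-like sums by edgeR. An unadjusted p under 0.05 was reached by 352 and 226 genes, and by DESeq2 0 genes were called in each class. With the 3 mixed-sex libraries alone, 1 at 24 against 2 at 12 months, Nr4a2 (-1.11, edgeR adjusted p = 0.03889) and Nr4a3 (-1.50, edgeR adjusted p = 0.002112) were called lower in fibroblast-like cells, where 0.806% of all genes were called. That older group is 1 library, so its spread is assumed to equal that between the 2 libraries at 12 months. Their 24-month values of 167 and 38.8 CPM lay just under the first 12-month library (192 and 45.5 CPM) and far under the second (499 and 172 CPM). Without the 24-month library the Nr4a3 change turned to 0.28.

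In the frozen sections, which were not dissociated, the first 14-month section was far above the other 3 for the Nr4a and Egr genes. Nr4a1 was at 529 CPM over all spots there, against 24.5 CPM in the second 14-month section and 16.4 and 8.35 CPM in the 22-month ones, a ratio of 21.6 to the next highest. Nr4a2 was at 44.7 CPM against 2.93, 3.10 and 2.66, and Nr4a3 at 46.7 CPM against 2.29, 2.64 and 3.17. The 3 other sections lay close together for both. Egr1 was at 382 CPM against 95.2 CPM in the second 14-month section and 11.02 and 9.57 CPM in the 22-month ones, and Egr2 at 14.4 CPM against 0.87, 0.099 and 0.327 CPM. Egr3 was at 8.64 CPM against 0.183, 0.561 and 0.467 CPM. Ier2 and Ier3 stood apart much less, at 319 CPM against 204, 94.8 and 82.5 CPM and at 210 CPM against 127, 128 and 57.3 CPM, ratios to the next highest of 1.56 and 1.65.

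The same section was also highest for Fosb, at 196 against at most 6.22 CPM (31.4-fold), for Atf3, at 215 against at most 4.53 CPM (47.6-fold), for Dusp1 by 3.24-fold and for Fos by 2.21-fold. Jun (1.58-fold), Junb (1.53-fold) and Zfp36 (1.07-fold) stood apart less, as Ier2 and Ier3 did. Its median depth (16430 UMIs per spot, others 14000 to 16620) and its urothelial marker sum (16500 CPM, others 15450 to 17610) were within the range of the other sections. Its mitochondrial share was the highest of the sections, at 3.96% (others 3.15% to 3.55%). Its smooth muscle sum was 24500 CPM (others 17150 to 22840) and its fibroblast sum 4572 CPM (others 4880 to 6990). What set this section apart was not tested. A spot can hold several cells, so a level of a spot is a level of a small region.

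Between the ages, 0 of 8 genes were called at 22 against 14 months by edgeR, where 0% of 14321 genes were called (2359 at an unadjusted p under 0.05, and 406 called by DESeq2). The log2 changes were -4.48 for Egr1 (SE 0.98, edgeR adjusted p = 0.2397), -4.43 for Nr4a1 (SE 2.04, edgeR adjusted p = 0.4309) and -1.50 for Ier2 (SE 0.25, edgeR adjusted p = 0.131). Egr1 and Ier2 were the 2 members at an unadjusted p under 0.05. Both 14-month sections read above both 22-month sections for Nr4a1, Egr1, Egr2 and Ier2, and the other 4 overlapped. Of all genes tested 33.1% separated in this direction and 18.1% in the other, so 4 of 8 is not far from what all genes gave. Leaving out a 14-month section leaves 1 at that age, which is then assumed to vary as the 2 sections at 22 months do. Without the first 14-month section Egr1 was called lower at 22 months (-3.12, edgeR adjusted p = 0.01438), as the 1 gene called of all those tested, while Nr4a2 and Nr4a3 moved to 0.062 and 0.43. Without the second 14-month section 4 members were called, Egr1 (-5.17, edgeR adjusted p = 0.0006528), Ier2 (-1.81, edgeR adjusted p = 0.01784), Nr4a2 (-3.91, edgeR adjusted p = 0.006068) and Nr4a3 (-3.97, edgeR adjusted p = 0.008589), each against the first alone, where 0.123% of all genes were called. DESeq2 called 2 members, Egr1 and Ier2, beside 2.83% of all genes.

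**Figure D4:**
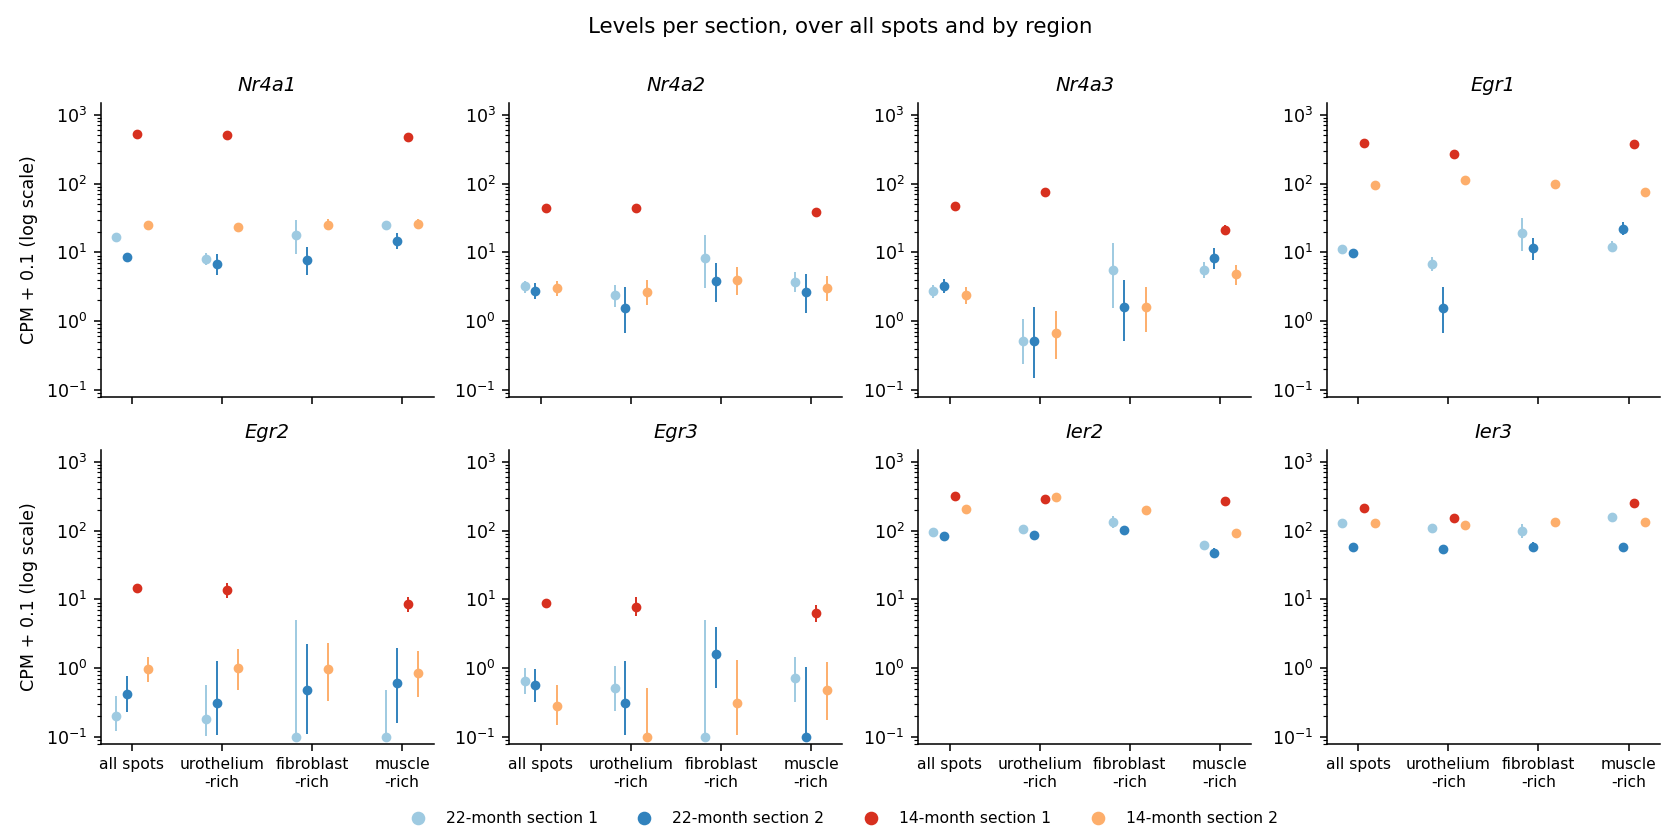
CPM on a log axis for each gene over all spots and over urothelium-rich, fibroblast-rich and muscle-rich spots of the 4 sections, with 95% Poisson intervals that cover counting error only. The first 14-month section (red) lies above the other 3 for the Nr4a genes, Egr2, Egr3 and Egr1 in every region drawn, and holds no fibroblast-rich region.

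Between regions of the sections, Ier3 was the 1 member called of 8, lower in urothelium-rich than in muscle-rich spots, where 76.3% of 13477 genes were called in either direction. Muscle-rich spots are those of clusters named by the smooth muscle list, and some of these led with other genes. A cluster of 178 spots in the second 14-month section led with immunoglobulin and haemoglobin genes, 1 of 180 spots in the first 22-month section with Ccl8, Folr2 and Cd209f, and clusters of 79, 69 and 52 spots with the mesothelial genes Slpi, Msln and Gpm6a. Ier3 was at 110, 53.3, 154 and 121 CPM in urothelium-rich spots of the 22-month sections 1 and 2 and the 14-month sections 1 and 2, and at 157, 58.2, 249 and 135 CPM in muscle-rich spots. It was thus lower in all 4 sections, with a log2 change of -0.48 (SE 0.11, edgeR adjusted p = 0.001184). Ier2 was at 104, 87.3, 286 and 308 CPM against 62.6, 47.5, 269 and 92.3 CPM in the same order, higher in urothelium-rich spots of all 4 sections, and missed the threshold (0.76, SE 0.28, edgeR adjusted p = 0.05332). It passed without the first 14-month section (1.04, edgeR adjusted p = 0.0009791) and scaled by library size only (0.85, edgeR adjusted p = 0.03451).

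Nr4a3 was at 0.42, 0.415 and 0.562 CPM in urothelium-rich spots of the 22-month sections and the second 14-month section, against 5.51, 8.12 and 4.70 CPM in muscle-rich spots. In the first 14-month section the order was the opposite, 75.5 against 21.2 CPM. Over all 4 sections its change was not called (-0.45, SE 1.35, edgeR adjusted p = 0.7867), and without that section it was -3.66 (edgeR adjusted p = 5.395e-06). Without the first or the second 22-month section it turned to 0.30 and 0.08, neither called. Nr4a1, at 7.98, 6.64, 512 and 23.1 CPM against 24.99, 14.5, 473 and 26.2 CPM, behaved in part alike: it was at -0.64 over the 4 sections (SE 0.33, edgeR adjusted p = 0.1304) and at -1.01 without the first 14-month one (edgeR adjusted p = 0.007837). Without that section 4 of 8 members were called, beside 71.3% of all genes, and without the second 14-month section 2, beside 71.1%, so neither share passed the background. Egr1 was at 6.72, 1.45, 273 and 113 CPM in urothelium-rich and 12.0, 22.1, 379 and 74.5 CPM in muscle-rich spots, lower in 3 of 4 sections and not called (-0.59, SE 0.63, edgeR adjusted p = 0.4496). Among the AP-1 factors 3 of 8 were higher in urothelium-rich spots and 1 lower, with Fosl1 at 2.55, Fosl2 at 1.33 and Jund at -1.67.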

How the data were processed

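Single-cell, nuclei and section tables hold counts of unique molecular identifiers per gene and barcode, and the bulk table holds read counts per gene, as the authors deposited them: all were whole numbers with totals that differed. The submitters' processing notes name Cell Ranger, Space Ranger, bcl2fastq, Subread, featureCounts and mm10; their versions, parameters and the annotation are not given in the sources used here. Per the labels, bulk libraries were polyA-selected TruSeq, droplets Chromium and sections Visium. The kit is not stated to be counted by strand, so overlapping antisense reads cannot be told apart.

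The 8 genes and all lists were chosen with earlier results of these data known. Barcodes were kept from 500 UMIs upwards if their mitochondrial share did not pass 20%, and the highest doublet scores (0.8% of barcodes per 1000) were removed. The 2 male tables read 0% mitochondrial counts. Each library was clustered on its own (2000 variable genes, 30 components, 15 neighbours, Leiden resolution 1), leaving out 88 genes, those 8 and the pathway lists; clusters were named by marker lists. Large clusters stayed unnamed in the male library at 22 months (1416 cells) and the detrusor-enriched library (1114 cells). At most 64 barcodes were shared by 2 libraries. Counts were summed per library and class (at least 50 cells).

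All tests were edgeR 4.0.16 quasi-likelihood tests (R 4.3.3, TMM, filterByExpr, two-sided) over the whole table, with Benjamini-Hochberg adjustment and a threshold of 0.05. Only the bulk fit was checked on simulated counts, made with the same dispersion for all genes. The other fits were not checked in this way. A test of classes had library as a block, one of age in cells the sex mix, and one of regions the section. The bulk test had no block. Regions are clusters of spots named by the marker list with the highest median log2 ratio, at least 0.5. Alternatives were DESeq2 1.42.0, other filters and scaling, other clusterings and sets of libraries, and each library left out; male libraries alone, mixed libraries alone and, for classes, nuclei, age in cells and regions, scaling by library size only were added after seeing the data. All 8 genes are named. Of each list the 2 largest rises and the 2 largest falls among called genes could be named, and for each gene the 3 genes most like it. Intervals are 95% exact Poisson intervals and, like the floor of 3 counts, cover counting error only. Promoter windows were searched on both strands for the half-site TGACG, the full site TGACGTCA (which holds the half-site), the AP-1 site TGANTCA and the CArG box. No matches overlapped in the windows shown.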

Additional observations from a re-analysis of the deposited data

How the results depend on the processing

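Of 701 values of single genes under the alternatives, 629 kept their direction and their side of the threshold, 43 lost the threshold, 22 gained it and 7 changed sign. In the bulk comparison all 8 genes were called under every alternative that was run. Whether the replicate numbers pair the bulk libraries cannot be settled with 3 libraries per group. Correlations of same-numbered deviations were 0.281, 0.377 and -0.05, and those of differently numbered ones ran from -0.501 to 0.297. With the replicate block 8 of 8 were called. The number of the 8 genes called moved as follows. In dendritic-like cells (5) it was 3 scaled by library size only, 3 with the 5 whole-bladder libraries only and 3 without the 2 male libraries, and 3 to 5 over the fits that leave out a library. In macrophage or monocyte-like cells (2) it was 1 with doublets kept, 1 without the 2 male libraries, 5 with the 2 male libraries only, and 1 to 2 leaving out a library. In mesothelial-like cells (3) it was 5 by DESeq2 and 2 to 5 leaving out a library. In smooth muscle-like cells (0) it was 1 by DESeq2, at Leiden resolution 2, at a minimum of 1000 UMIs and without the 2 male libraries, and 0 to 2 leaving out a library. In urothelial-like cells (6) it was 3 with the 2 male libraries only, where Nr4a1 turned to 0.20. For age in fibroblast-like cells (0) it was 2 with the 3 mixed libraries only, and Nr4a3 ran from -1.50 to 0.28 leaving out a library. Between regions (1) it was 2 scaled by library size only, 3 by DESeq2, 3 with a region rule of 1 in place of 0.5, which leaves urothelium-rich spots in the 2 14-month sections alone and where Nr4a3 turned to 1.31, and 1 to 4 leaving out a section, with Nr4a3 from -3.66 to 0.30. Between ages of sections (0) it was 2 by DESeq2 and 0 to 4 leaving out a section, with Nr4a2 from -3.91 to 0.062 and Nr4a3 from -3.97 to 0.43. Fewer libraries or genes enter some of these fits; for the rest the cause was not tested. Classes held by too few libraries under a subset gave no value there. Depth limits Egr2 and Egr3 in intact tissue and the Nr4a and Egr genes in nuclei, where most rest on fewer than 20 counts. Egr3 gave 0 to 2 UMIs in whole-bladder fibroblast-like sums of up to 9222386 counts.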

Other observations

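Some spots and clusters could not be named by a marker list and entered no comparison. In the first 14-month section 292 such spots had Nr4a1 at 597 CPM and Egr1 at 458 CPM, above the 512 and 473 CPM of Nr4a1 and the 273 and 379 CPM of Egr1 in its urothelium-rich and muscle-rich spots. In the 22-month sections 183 and 376 unnamed spots had Nr4a1 at 19.5 and 5.98 CPM and Egr1 at 14.8 and 7.26 CPM. Plasma cell-rich spots were found in the 22-month sections only by this rule (112 and 193 spots), with Nr4a1 at 16.8 and 9.30 CPM and Egr1 at 16.3 and 9.96 CPM.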
